A study of Homo sapiens with 12 samples.

Results

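CXCR7 knockdown (KD) lowered the mRNA of the pore-forming death gene BAX in both enzalutamide-resistant prostate cancer lines studied, and left the mRNA of the survival genes BCL2L1 and MCL1 without a call in either line. The BCL2 family is described here by 10 genes, found by gene symbol among 26441 genes in the deposited table. They are the survival genes BCL2, BCL2L1 and MCL1, the effectors BAX and BAK1, and the BH3-only genes BBC3, PMAIP1, BCL2L11, BID and BAD. All 10 were present, 9 of them above the level needed for a test, and BCL2 was too low to be tested. RNA-Seq was performed on 12 libraries, 3 per group. The paper describes its RNA-Seq of C4-2B-EnzR cells as duplicate, while the deposit held 3 libraries for each C4-2B-EnzR group, all used here. Human prostate LNCaP-EnzR cells were kept in 2 µM enzalutamide, an androgen receptor inhibitor, and C4-2B-EnzR cells, from a castration-resistant line derived from LNCaP, in 10 µM. In the labels these are LNCaP MDVr P23 and C4-2B MDVr P15. Each line was infected with lentivirus carrying either the pLKO control (LKO) or a short hairpin against CXCR7 (shCXCR7), and RNA was taken 4 days later, so both groups of a line carried a lentiviral vector and the same drug. Which hairpin was used, and whether replicates came from separate cultures, is not given in the sources used here, so p-values speak of the spread among these libraries alone, and that spread may be technical.

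Commitment to the mitochondrial route of apoptosis is set by contacts among these proteins. BAX and BAK1 open the outer mitochondrial membrane and let out cytochrome c, which starts the caspase cascade. BCL2, BCL2L1 (BCL-XL) and MCL1 hold the effectors and their activators in check, and BH3-only proteins either bind the survival proteins, activate the effectors directly, or do both. Much of this control acts on the proteins by phosphorylation, cleavage or turnover, which mRNA does not show.

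The values below are RPKM (reads of a gene scaled by its length and by the reads of the library) that were divided by median-of-ratios factors within each line, called rescaled RPKM here. The rescaling bears on 1 library. LNCaP-EnzR shCXCR7 replicate 3 had 27.4% of its 35.67 M reads in genes, against 67.0% to 75.5% in the others, and listed 1636 genes at 0 against 8719 to 9652. Genes at 0 in every library of the other groups had a median of 0.244 RPKM there, and its factor was 0.493 against 1.11 to 1.21 in the rest of its line. Reads in genes came to between 6382010 and 9834306 per library. ACKR3, the gene of CXCR7, was lower in all 3 shCXCR7 libraries than in all 3 LKO libraries of its line, at 42.3% of control in LNCaP-EnzR (log2 scale: -1.24 with a standard error of 0.11, adjusted p = 2.02e-05) and 25.5% in C4-2B-EnzR (-1.97 with a standard error of 0.09, adjusted p = 1.21e-05). The depth of KD differed between the lines (difference -0.73, limma adjusted p = 0.00574), so line differences in response below cannot be told apart from it. The 9 luminal prostate markers summed to 626 to 638 rescaled RPKM in LNCaP-EnzR LKO and 494 to 590 in shCXCR7, and to 818 to 865 and 649 to 673 in C4-2B-EnzR. The neuroendocrine list of 5 genes also summed lower after KD, at 12.1 to 14.4 against 6.69 to 10.2 in LNCaP-EnzR and 19.7 to 21.6 against 14.98 to 16.6 in C4-2B-EnzR. In both lines, however, 1 of these genes stood at 1 rescaled RPKM or more in all LKO libraries and 2 in all shCXCR7 libraries. The sum therefore does not speak for each gene. Blood, basal and endothelial lists summed to at most 0.263 in every library but LNCaP-EnzR shCXCR7 replicate 3, where they reached 4.19, 2.88 and 3.52. The fibroblast list of 4 genes summed to 3.21 to 3.45 in LNCaP-EnzR LKO and 3.24 to 5.996 in shCXCR7, and to 9.12 to 11.9 and 8.48 to 9.95 in C4-2B-EnzR, with 1 of its genes at 1 rescaled RPKM or more in every library and COL1A2 at 0 in all but LNCaP-EnzR shCXCR7 replicate 3. The part of these markers in the results was not tested.

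Of the 9 tested members, limma called 4 in LNCaP-EnzR cells and 6 in C4-2B-EnzR cells at a Benjamini-Hochberg adjusted p under 0.05 over all genes. In LNCaP-EnzR 2 rose and 2 fell, where 19.4% of all 13073 tested genes rose and 21.3% fell. In C4-2B-EnzR 3 rose and 3 fell, against 21.2% and 21.3% of 13347 genes. The groups did not overlap for 6 of the 9 members in LNCaP-EnzR and 7 of the 9 in C4-2B-EnzR, where 52.3% and 54.7% of all genes did not overlap. The stricter limits of 2-fold and an adjusted p under 0.001 left 1 member in each line, BAX, where 3.9% and 4.16% of all genes passed. The median log2 fold change of the 9 members was -0.05 for LNCaP-EnzR cells and -0.06 for C4-2B-EnzR cells, and that of all genes 0.01 and -0.001. BAX, BID, PMAIP1 and BCL2L11 were called in both lines and in the same direction. The 4 calls in LNCaP-EnzR held in all alternatives except RPKM as deposited, without rescaling, where the median log2 fold change of all genes was -0.31 and limma called 0 members, 2 of them at an unadjusted p under 0.05.

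**Figure D1:**
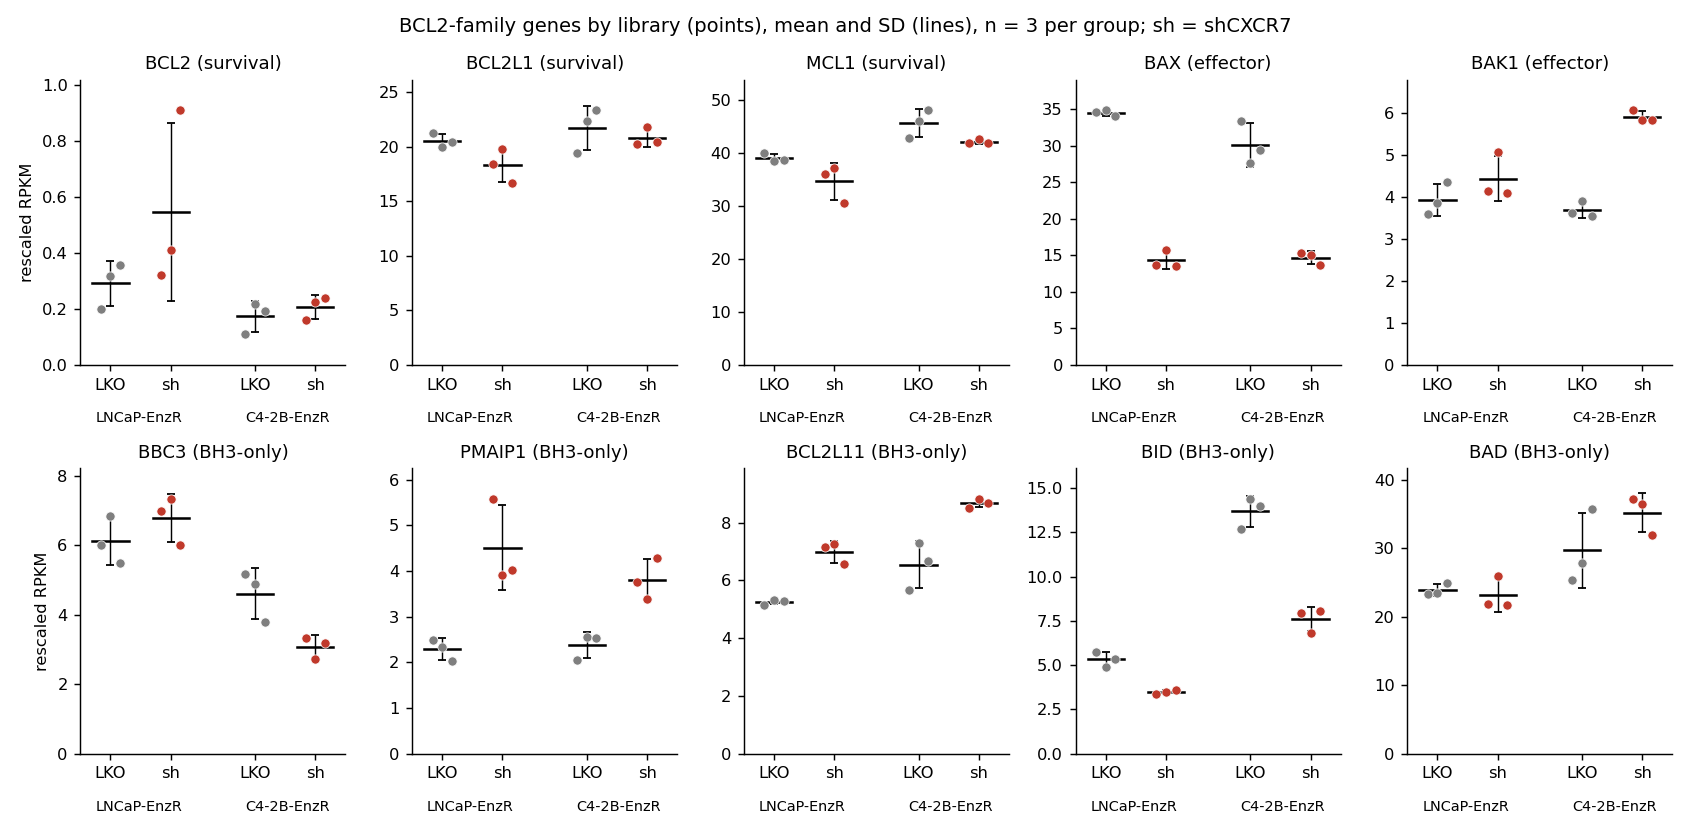
Rescaled RPKM (vertical axis, from 0, its own scale in each panel) of the 10 genes in the 12 libraries, grey for LKO and red for shCXCR7, with the group mean and SD as black lines (n = 3). BAX drops from 34.04 or more to 15.7 or less in LNCaP-EnzR, and the single high BCL2 point of 0.91 is LNCaP-EnzR shCXCR7 replicate 3.

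BAX, the larger of the 2 effector members by mRNA level, was the member that changed most. It occupies bases 48954815 to 48961798 of chromosome 19 (GRCh38, + strand), and GENCODE gives its canonical transcript 6 exons. In LNCaP-EnzR cells BAX stood at 34.6, 34.8 and 34.04 rescaled RPKM in LKO and at 13.7, 15.7 and 13.5 in shCXCR7. All 3 KD libraries were far below the controls, whose values lay close together, and replicate 3 lay close to replicate 1. The log2 fold change was -1.26 (standard error 0.08, 95% interval -1.43 to -1.09, adjusted p = 3.08e-06), or 41.8% of control. In C4-2B-EnzR cells the levels were 33.4, 27.6 and 29.3 in LKO and 15.3, 15.1 and 13.7 in shCXCR7, with a log2 fold change of -1.02 (standard error 0.09, 95% interval -1.23 to -0.81, adjusted p = 0.00013), or 49.3% of control. The drop did not pass the test for a difference between the lines (difference 0.24, 95% interval -0.02 to 0.49, adjusted p = 0.202). These values rest on 213 to 735 reads per library. In bulk RNA, fewer cells with BAX mRNA and less BAX mRNA per cell cannot be told apart.

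BAK1, the other effector, went the opposite way in C4-2B-EnzR. It stood at 3.61, 3.902 and 3.53 rescaled RPKM in C4-2B-EnzR LKO and at 6.06, 5.82 and 5.84 in shCXCR7, with every KD library above every control. Its log2 fold change there was 0.65 (standard error 0.08, adjusted p = 0.000755), or 156.6% of control. In LNCaP-EnzR the levels were 3.58, 3.86 and 4.34 in LKO and 4.14, 5.06 and 4.10 in shCXCR7. These groups overlapped, and the log2 fold change was 0.16 (standard error 0.11, 95% interval -0.09 to 0.41, adjusted p = 0.277). The response was larger in C4-2B-EnzR by 0.48 on the log2 scale (standard error 0.14, adjusted p = 0.0351), where 13.9% of 12482 genes differed between the lines. That call was lost in 14 of 23 alternative fits. BAK1 lies on chromosome 6 from 33572547 to 33580293 on the - strand, and GENCODE lists processed pseudogenes of it, whose reads the counting could split, so its level is uncertain to that extent. No check for pseudogenes is given for the other members. BAK1 also shares 91 exon bases with GGNBP1 on the other strand, listed at 1.19 rescaled RPKM or less.

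Because RPKM is per length, the effectors' levels can be set side by side, as far as the lengths used match the transcripts present. The lengths that fit the deposited values were 1305 bases for BAX and 2193 for BAK1. GENCODE gives their canonical transcripts 795 and 2170 bases. Shares, sums and orders across genes depend on such lengths, while the fold change of a gene between groups does not. BAX made up 90.6%, 90.0% and 88.7% of the summed BAX and BAK1 level in the LNCaP-EnzR LKO libraries and 76.8%, 75.7% and 76.7% in shCXCR7. In C4-2B-EnzR it made up 90.2%, 87.6% and 89.2% in LKO and 71.6%, 72.1% and 70.1% in shCXCR7. The share fell in both lines with no overlap, and BAX remained the larger part of the pair in all 12 libraries. A share taken within a library does not depend on the factor of that library. The summed effector level was 38.4 ± 0.27 (SD, n = 3) in LNCaP-EnzR LKO and 18.7 ± 1.79 in shCXCR7, and 33.8 ± 2.85 and 20.6 ± 0.96 in C4-2B-EnzR.

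The start regions of the 4 members that were called in both lines in the same direction are shown because these genes were the part of the family that moved alike in the 2 lines. Each runs from 250 bases before to 50 after a RefSeq start on GRCh38.p14, 5′ to 3′ on the gene's strand, and 9 of the 10 members matched an entry. Where RefSeq gives several starts, the window nearest the GENCODE canonical start was taken. Capitals mark every CACGTG (an E-box), TGACGT (the core of a cyclic AMP response element) and CCAAT, read on both strands, so that ACGTCA and ATTGG are marked too.
BAX chr19:48954625-48954924 (+ strand): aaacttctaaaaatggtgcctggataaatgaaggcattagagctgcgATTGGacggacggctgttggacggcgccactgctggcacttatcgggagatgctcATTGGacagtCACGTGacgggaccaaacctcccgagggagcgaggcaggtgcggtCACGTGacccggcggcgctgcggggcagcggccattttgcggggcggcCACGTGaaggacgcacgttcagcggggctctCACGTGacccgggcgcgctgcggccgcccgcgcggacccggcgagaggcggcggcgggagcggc
BID chr22:17774420-17774719 (- strand): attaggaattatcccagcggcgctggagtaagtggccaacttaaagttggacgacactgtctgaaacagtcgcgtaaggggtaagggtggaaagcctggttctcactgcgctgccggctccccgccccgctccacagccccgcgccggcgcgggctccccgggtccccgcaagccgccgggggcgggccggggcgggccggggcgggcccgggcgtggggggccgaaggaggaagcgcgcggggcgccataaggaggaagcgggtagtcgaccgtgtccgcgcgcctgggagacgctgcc
PMAIP1 chr18:59899746-59900045 (+ strand): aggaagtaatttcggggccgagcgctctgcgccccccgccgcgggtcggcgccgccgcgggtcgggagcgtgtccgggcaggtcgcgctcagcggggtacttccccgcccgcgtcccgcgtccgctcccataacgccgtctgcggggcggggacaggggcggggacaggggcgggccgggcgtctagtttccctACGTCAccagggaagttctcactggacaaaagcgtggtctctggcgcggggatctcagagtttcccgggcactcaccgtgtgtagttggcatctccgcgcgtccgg
BCL2L11 chr2:111120664-111120963 (+ strand): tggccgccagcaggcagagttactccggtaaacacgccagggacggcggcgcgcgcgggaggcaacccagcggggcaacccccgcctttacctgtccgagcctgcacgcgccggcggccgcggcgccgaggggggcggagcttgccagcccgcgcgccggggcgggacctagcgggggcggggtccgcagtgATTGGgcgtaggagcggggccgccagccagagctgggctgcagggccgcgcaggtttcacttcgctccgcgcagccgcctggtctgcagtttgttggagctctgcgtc
The BAX window held 4 copies of CACGTG, and 5 of 35116 RefSeq windows of this length (0.0142%) held 4 or more, while 7.26% held at least 1. It also held CCAAT 2 times on the reverse strand, as 10.8% of windows held 2 or more. The PMAIP1 window held 1 TGACGT on the reverse strand, as 7.98% of windows held at least 1, and the BCL2L11 window held 1 CCAAT on the reverse strand, a motif with at least 1 copy in 34.6%. None of the 3 motifs occurred in the BID window. GC made up 67.3% of the BAX, 71.7% of the BID, 71.3% of the PMAIP1 and 74.7% of the BCL2L11 window, against a median of 58.7% over all windows. A match describes the letters of the window and is not evidence that a factor binds there.

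BID, a BH3-only protein whose cleavage by caspase-8 links death receptors to mitochondria, fell with BAX in both lines. In LNCaP-EnzR it stood at 5.73, 4.91 and 5.35 rescaled RPKM in LKO and at 3.39, 3.48 and 3.57 in shCXCR7, which is -0.58 on the log2 scale (standard error 0.09, adjusted p = 0.000666), or 67% of control. In C4-2B-EnzR it stood at 12.7, 14.4 and 14.0 in LKO and at 7.95, 6.84 and 8.08 in shCXCR7, which is -0.82 on the log2 scale (standard error 0.09, adjusted p = 0.000394), or 56.5% of control. No KD library reached a control library in either line. The drop did not pass the test for a line difference (-0.25, 95% interval -0.51 to 0.02, adjusted p = 0.2). BID lies on chromosome 22 from 17734138 to 17774770 on the - strand, with 6 exons in its canonical transcript.

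PMAIP1, which encodes the MCL1-binding BH3-only protein NOXA, rose in both lines. The LNCaP-EnzR levels were 2.49, 2.33 and 2.02 rescaled RPKM in LKO and 5.57, 3.92 and 4.02 in shCXCR7, which is 0.90 on the log2 scale (standard error 0.14, adjusted p = 0.000892), or 186.3% of control. The C4-2B-EnzR levels were 2.04, 2.56 and 2.53 in LKO and 3.77, 3.39 and 4.28 in shCXCR7, which is 0.63 on the log2 scale (standard error 0.13, adjusted p = 0.00616), or 154.5% of control. The groups did not overlap, and replicate 1 was the highest of the LNCaP-EnzR KD libraries. PMAIP1 lies on chromosome 18 from 59899996 to 59904305 on the + strand, with 2 exons, and rests on 48 to 152 reads per library.

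BCL2L11, which encodes BIM, an activator of BAX and BAK1 that also binds the survival proteins, rose in both lines. Levels in LNCaP-EnzR were 5.16, 5.33 and 5.30 rescaled RPKM in LKO and 7.14, 7.27 and 6.57 in shCXCR7, which is 0.39 on the log2 scale (standard error 0.08, adjusted p = 0.00257). Levels in C4-2B-EnzR were 5.67, 7.29 and 6.67 in LKO and 8.53, 8.82 and 8.69 in shCXCR7, which is 0.40 on the log2 scale (standard error 0.10, adjusted p = 0.0142). All KD libraries were above all controls in both lines. The difference between the lines was 0.01 with a 95% interval from -0.25 to 0.27. BCL2L11 lies on chromosome 2 from 111119378 to 111168444 on the + strand, where 727 exon bases are shared with MIR4435-2HG on the other strand. The counting is not stated to use strand, so reads of the 2 genes in those bases cannot be told apart, and MIR4435-2HG itself stood at 1.43 rescaled RPKM at most.

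BBC3, which encodes PUMA, a BH3-only protein that binds all survival members, moved apart in the 2 lines. In LNCaP-EnzR it stood at 6.004, 6.85 and 5.48 rescaled RPKM in LKO and at 6.98, 7.33 and 5.996 in shCXCR7, and the groups overlapped (log2 fold change 0.14, standard error 0.11, 95% interval -0.09 to 0.38, adjusted p = 0.314). In C4-2B-EnzR it stood at 5.16, 4.87 and 3.78 in LKO and at 3.33, 2.71 and 3.19 in shCXCR7, without overlap. The log2 fold change there was -0.54 (standard error 0.14, adjusted p = 0.0155), or 68.9% of control, and it was lost without LKO replicate 2 (adjusted p = 0.0558) or without shCXCR7 replicate 2 (adjusted p = 0.0601). The response differed between the lines by -0.68 on the log2 scale (C4-2B-EnzR minus LNCaP-EnzR, standard error 0.18, adjusted p = 0.0256), a call that 17 of 23 alternative fits kept. BBC3 lies on chromosome 19 from 47220822 to 47232766 on the - strand, and rests on 65 to 249 reads per library.

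BAD, a BH3-only protein that phosphorylation by survival kinases keeps inactive, was the most abundant BH3-only member and was not called. In LNCaP-EnzR it stood at 23.3, 23.5 and 24.9 rescaled RPKM in LKO and at 21.8, 25.99 and 21.7 in shCXCR7 (log2 fold change -0.05, 95% interval -0.24 to 0.14). In C4-2B-EnzR it stood at 25.4, 27.9 and 35.8 in LKO and at 37.2, 36.5 and 31.9 in shCXCR7 (log2 fold change 0.26, 95% interval -0.04 to 0.55, adjusted p = 0.146). LKO replicate 3 was the control that reached into the range of the KD libraries, and without it the log2 fold change was 0.40 (adjusted p = 0.0135). BAD lies on chromosome 11 from 64269830 to 64284704 on the - strand and shares 314 exon bases with GPR137 on the other strand, whose reads there cannot be told apart. GPR137 stood at 18.1 to 25.4 rescaled RPKM over the 12 libraries, a level like that of BAD.

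**Figure D2:**
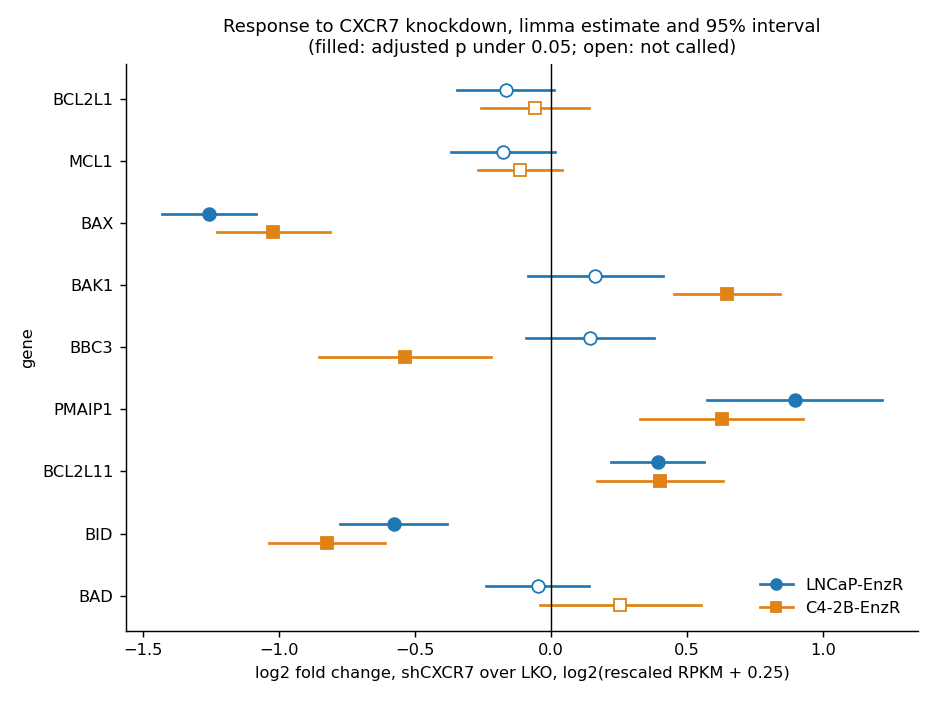
Limma log2 fold change of shCXCR7 over LKO (horizontal axis) with its 95% interval for the 9 tested members in LNCaP-EnzR (blue circles) and C4-2B-EnzR (orange squares), filled where the adjusted p was under 0.05. BAX and BID lie left of 0 and PMAIP1 and BCL2L11 right of 0 in both lines, and for BAK1 and BBC3 only the C4-2B-EnzR estimate is called.

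MCL1, a short-lived survival protein, had the highest rescaled RPKM of the members in all 12 libraries, and its mRNA was not called in either line. Its LNCaP-EnzR levels were 40.1, 38.5 and 38.8 rescaled RPKM in LKO and 36.1, 37.3 and 30.7 in shCXCR7 (log2 fold change -0.18, standard error 0.09, 95% interval -0.37 to 0.01, adjusted p = 0.129). Its C4-2B-EnzR levels were 42.8, 46.2 and 48.1 in LKO and 41.96, 42.7 and 41.9 in shCXCR7 (log2 fold change -0.11, standard error 0.07, 95% interval -0.27 to 0.04, adjusted p = 0.21). Its groups did not overlap in either line, with KD libraries lower, and the lowest was LNCaP-EnzR shCXCR7 replicate 3. Without C4-2B-EnzR LKO replicate 1 the C4-2B-EnzR value became -0.16 (adjusted p = 0.0449). MCL1 lies on chromosome 1 from 150560895 to 150579738 on the - strand, with 3 exons. Its rank over BAX depends on the gene lengths behind the RPKM. These were 4085 bases for MCL1 and 1305 for BAX, against 3950 and 795 for their GENCODE canonical transcripts.

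BCL2L1, whose long isoform is the survival protein BCL-XL and whose short isoform favours death, was measured as the sum of its isoforms. In LNCaP-EnzR it stood at 21.3, 19.96 and 20.5 rescaled RPKM in LKO and at 18.5, 19.8 and 16.7 in shCXCR7 (log2 fold change -0.17, standard error 0.08, 95% interval -0.34 to 0.01, adjusted p = 0.122). In C4-2B-EnzR it stood at 19.5, 22.4 and 23.4 in LKO and at 20.2, 21.8 and 20.4 in shCXCR7 (log2 fold change -0.06, standard error 0.09, 95% interval -0.26 to 0.14, adjusted p = 0.611). The KD libraries were all lower in LNCaP-EnzR and lay within the control range in C4-2B-EnzR. BCL2L1 lies on chromosome 20 from 31664452 to 31723989 on the - strand, and 945 of its exon bases are shared with ABALON, a long noncoding RNA on the other strand listed at 0.83 rescaled RPKM or less.

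BCL2, the founding survival member, was near the detection limit. It stood at 0.200, 0.318 and 0.356 rescaled RPKM in LNCaP-EnzR LKO and at 0.322, 0.410 and 0.910 in shCXCR7, and at 0.112, 0.218 and 0.191 and at 0.159, 0.225 and 0.240 in C4-2B-EnzR. These values rest on 9 to 44 reads per library, and on 106 reads in LNCaP-EnzR shCXCR7 replicate 3. Before rescaling, BCL2 stood at 0.449 RPKM in that library, beside a background of 0.244 RPKM on the same scale. BCL2 did not reach 0.5 rescaled RPKM in 3 libraries of a line and was left out of the fits. The groups overlapped in both lines. It lies on chromosome 18 from 63123346 to 63320128 on the - strand.

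Summed over the 3 survival genes, the level was 61.5, 58.8 and 59.6 rescaled RPKM in LNCaP-EnzR LKO and 54.9, 57.5 and 48.3 in shCXCR7. It was 62.4, 68.8 and 71.7 in C4-2B-EnzR LKO and 62.3, 64.7 and 62.6 in shCXCR7. The LNCaP-EnzR libraries did not overlap and those of C4-2B-EnzR did. MCL1 made up 65.2% ± 0.24 (SD, n = 3) of the sum in LNCaP-EnzR LKO and 64.7% ± 1.09 in shCXCR7, and 67.6% ± 0.85 and 66.7% ± 0.72 in C4-2B-EnzR, while BCL2 made up at most 1.89%.

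**Figure D3:**
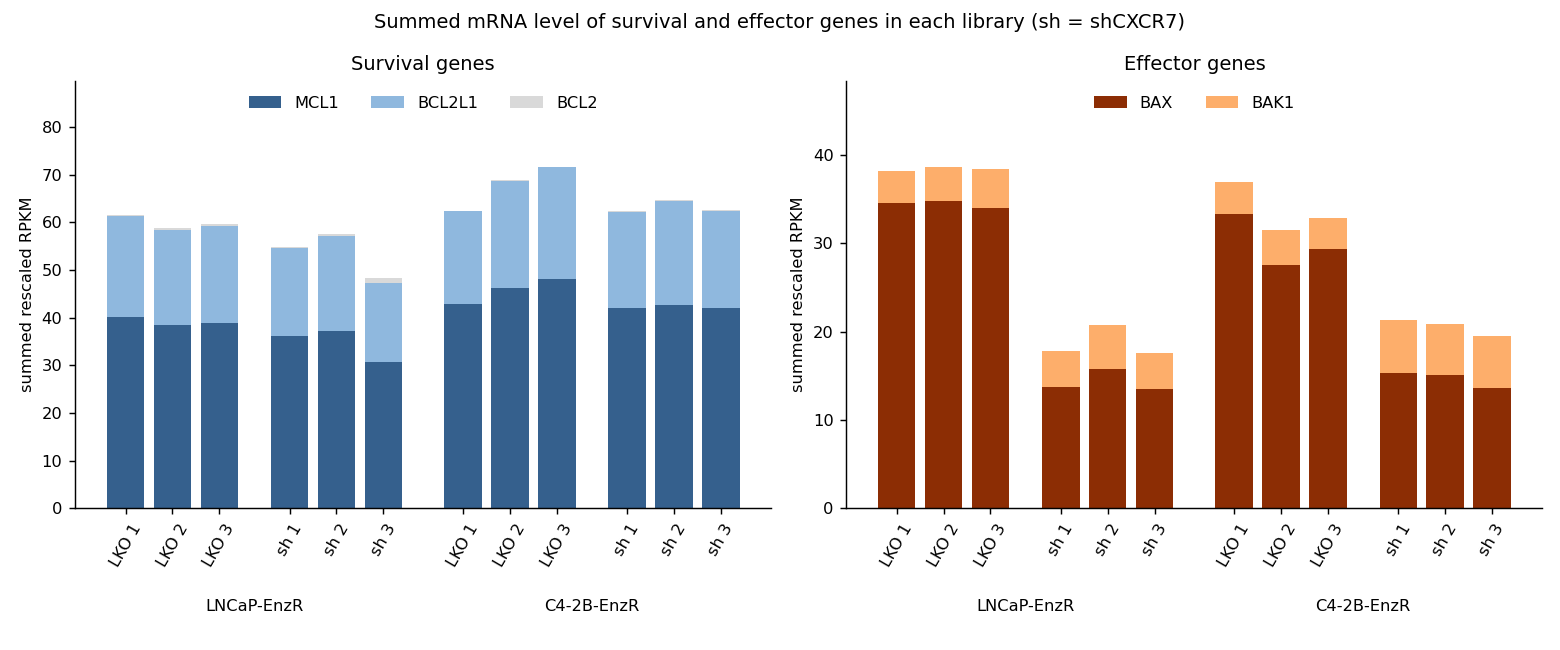
Stacked bars of rescaled RPKM in each of the 12 libraries for the survival genes MCL1, BCL2L1 and BCL2 (left) and the effectors BAX and BAK1 (right). Survival sums run from 48.3 to 71.7 across all groups, and sums of BAX and BAK1 fall from 31.5 or more in LKO to 21.3 or less in shCXCR7.

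Before KD the 2 lines already differed in 5 of 9 tested members, where 33% of 13286 genes were higher and 32% lower in C4-2B-EnzR LKO than in LNCaP-EnzR LKO. For this the 12 libraries were rescaled together. BID was higher in C4-2B-EnzR, at 11.4, 13.01 and 12.6 against 6.31, 5.404 and 5.92 rescaled RPKM (log2 difference 1.04, standard error 0.09, adjusted p = 3.22e-05). BAX was lower, at 30.1, 24.9 and 26.3 against 38.1, 38.4 and 37.6 (-0.49, standard error 0.08, adjusted p = 0.00092). BBC3 was lower by -0.67 (standard error 0.14, adjusted p = 0.00292), BAK1 by -0.36 (standard error 0.10, adjusted p = 0.016) and BCL2L1 by -0.21 (standard error 0.08, adjusted p = 0.0496), the last of which passed in 5 of 17 alternative fits. MCL1, PMAIP1, BCL2L11 and BAD were not called. Line, enzalutamide dose and the P23 and P15 marks go together in these samples and cannot be told apart. Orders of rescaled RPKM across genes depend on the gene lengths used. In LNCaP-EnzR LKO the order within the line was MCL1, BAX, BAD and BCL2L1, then BBC3, BID, BCL2L11, BAK1, PMAIP1 and BCL2. There the library values of BID (5.33 ± 0.41) overlapped those of its neighbours BBC3 (6.11 ± 0.69) and BCL2L11 (5.26 ± 0.09). In C4-2B-EnzR LKO the order was MCL1, BAX, BAD, BCL2L1, BID, BCL2L11, BBC3, BAK1, PMAIP1 and BCL2. BAX (30.1 ± 2.96) and BAD (29.7 ± 5.43) lay within their SD of each other there. BBC3 (4.60 ± 0.73) and BAK1 (3.68 ± 0.20) lay further apart than either SD, though the lowest BBC3 library, at 3.78, fell in the BAK1 range.

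Among 13 other BCL2-family genes, 3 rose and 3 fell of 8 tested in LNCaP-EnzR, and 5 rose and 2 fell of 9 in C4-2B-EnzR, with a median log2 fold change of 0.12 and 0.28. Of all tested genes, 19.4% rose and 21.3% fell in the former line, 21.2% and 21.3% in the latter. The falls common to both lines were BCL2L13 and BNIP3L, which both encode mitochondrial outer membrane proteins known for their part in mitophagy. BNIP3L stood at 60.5, 63.2 and 64.0 rescaled RPKM in LNCaP-EnzR LKO and at 21.7, 18.8 and 16.9 in shCXCR7 (log2 fold change -1.70, standard error 0.09, adjusted p = 1.78e-06), and its fall in C4-2B-EnzR was -1.06 (with a standard error of 0.11, adjusted p = 0.000256). BCL2L13 stood at 8.65, 8.97 and 8.68 in LNCaP-EnzR LKO and at 3.89, 4.09 and 3.74 in shCXCR7 (-1.12, standard error 0.07, adjusted p = 4.82e-06), and its fall in C4-2B-EnzR was -1.06 (with a standard error of 0.10, adjusted p = 0.000152). BCL2L14, a poorly understood member, rose in C4-2B-EnzR from 1.44, 1.62 and 2.02 to 4.47, 3.76 and 5.33 (1.29, standard error 0.16, adjusted p = 0.000622) and was not tested in LNCaP-EnzR, where it lay between 0.03 and 0.09 in all libraries but shCXCR7 replicate 3, at 0.71. BMF and BOK rose in both lines, by 0.84 and 0.35 in LNCaP-EnzR (adjusted p = 6.8e-05 and 0.0286) and by 0.33 and 0.28 in C4-2B-EnzR (adjusted p = 0.0174 and 0.0115).

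Among 15 genes of the apoptosome, caspases and inhibitors of apoptosis, 4 rose and 4 fell of 14 tested in LNCaP-EnzR, and 3 rose and 2 fell of 14 in C4-2B-EnzR, with medians of 0.07 and 0.15. Over all genes the shares were 19.4% and 21.3%, then 21.2% and 21.3%. The LNCaP-EnzR count fell to 5 without LKO replicate 2, LKO replicate 3 or shCXCR7 replicate 2, and that of C4-2B-EnzR to 2 without LKO replicate 2 or shCXCR7 replicate 1. BIRC5 (survivin), an inhibitor of apoptosis that also works in mitosis, fell from 19.8, 26.2 and 34.2 rescaled RPKM to 6.09, 7.12 and 5.17 in C4-2B-EnzR (-2.06 with a standard error of 0.19, adjusted p = 0.000175) and by -0.64 in LNCaP-EnzR (standard error 0.08, adjusted p = 0.000227). That response differed between the lines (-1.41, adjusted p = 0.00201). CYCS, which encodes cytochrome c, fell from 21.0, 21.2 and 22.2 to 12.4, 12.2 and 10.6 in LNCaP-EnzR (-0.86, standard error 0.08, adjusted p = 2.83e-05) and by -0.47 in C4-2B-EnzR (adjusted p = 0.035). The caspases CASP9 and CASP6 rose in both lines, by 0.35 and 0.38 in LNCaP-EnzR (adjusted p = 0.0106 and 0.00662) and 0.53 and 0.43 in C4-2B-EnzR (adjusted p = 0.016 and 0.00853).

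Cleavage of BID links the death receptor arm to mitochondria. Among 10 genes of this arm, 4 rose and 3 fell of 9 tested in each line, with medians of 0.13 and 0.30. Of all genes, 19.4% rose and 21.3% fell in LNCaP-EnzR cells, 21.2% and 21.3% in C4-2B-EnzR cells. Without LKO replicate 2 the LNCaP-EnzR count of 7 fell to 4. CASP8, the caspase that cleaves BID, rose from 2.18, 1.82 and 2.01 rescaled RPKM to 4.91, 5.23 and 4.54 in LNCaP-EnzR (1.19, standard error 0.11, adjusted p = 2.48e-05) and from 1.54, 2.12 and 2.74 to 5.14, 4.80 and 5.12 in C4-2B-EnzR (1.18 with a standard error of 0.18, adjusted p = 0.00145). Its transcript rose in the libraries in which that of its substrate BID fell. The receptors did not move one way. FAS and TNFRSF1A rose in both lines, by 0.50 and 0.53 in LNCaP-EnzR (adjusted p = 0.0338 and 0.00104) and by 0.73 and 0.51 in C4-2B-EnzR (adjusted p = 0.00284 and 0.000782). TNFRSF10A and TNFRSF10B, the receptors of TRAIL, fell in both, by -0.50 and -0.35 in LNCaP-EnzR (adjusted p = 0.00084 and 0.0079) and by -0.94 and -0.57 in C4-2B-EnzR (adjusted p = 0.000905 and 0.00461).

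**Figure D4:**
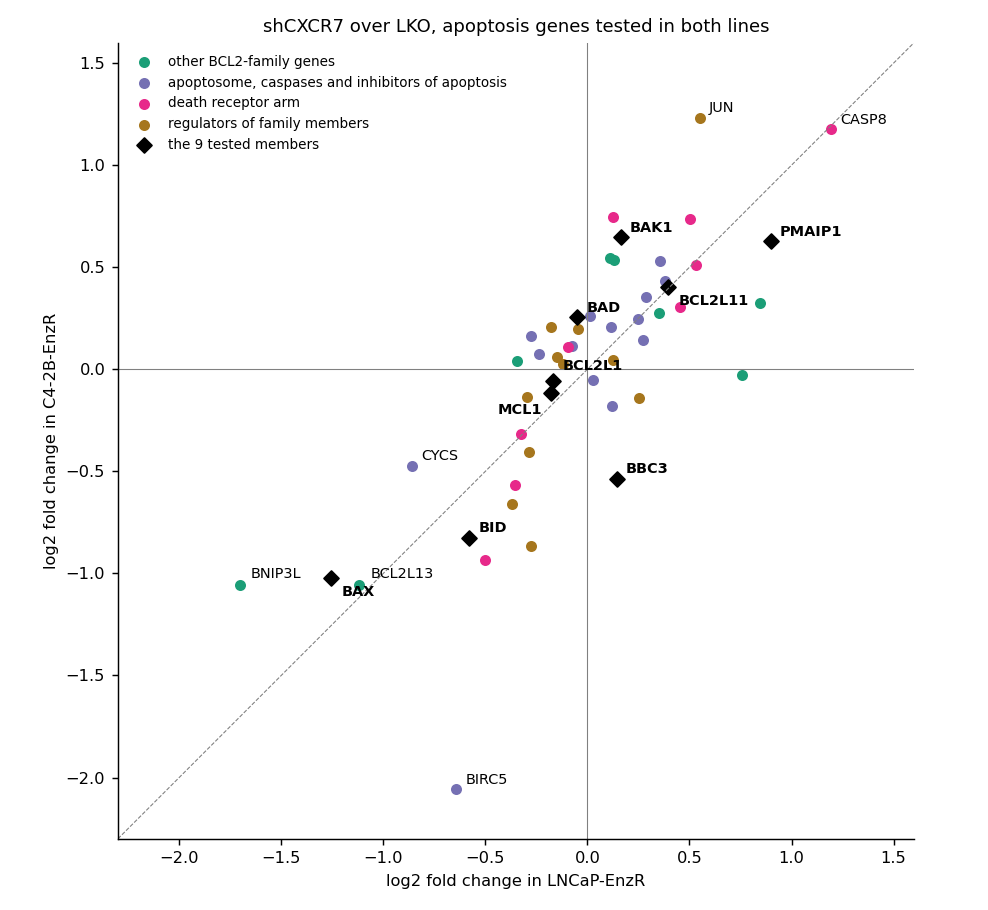
Log2 fold change of shCXCR7 over LKO in LNCaP-EnzR (horizontal axis) and C4-2B-EnzR (vertical axis) for the 9 tested members (black diamonds) and 42 other genes of the 4 lists tested in both lines (coloured dots), with the diagonal dashed. BAX lies beside BCL2L13 near -1 in both lines, CASP8 near 1.2 in both and BIRC5 lowest in C4-2B-EnzR.

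Among 12 regulators of family members by transcription or turnover, 2 rose and 3 fell of 12 tested in LNCaP-EnzR, and 1 rose and 3 fell of 11 in C4-2B-EnzR, with medians of -0.13 and 0.03. The shares over all genes were 19.4% and 21.3%, then 21.2% and 21.3%. The LNCaP-EnzR count of 5 fell to 3 without LKO replicate 1 or 2 and to 2 without LKO replicate 3. JUN, a transcription factor of the AP-1 family, rose in both, from 25.8, 29.0 and 25.9 rescaled RPKM to 39.3, 43.3 and 36.1 in LNCaP-EnzR (0.55, standard error 0.09, adjusted p = 0.000816) and from 10.4, 8.28 and 9.09 to 21.5, 19.6 and 25.3 in C4-2B-EnzR (1.23 with a standard error of 0.12, adjusted p = 0.000188). HUWE1, a ubiquitin ligase of MCL1, and FOXO3, a known activator of BCL2L11, fell in both lines (-0.37 and -0.29 in LNCaP-EnzR cells, -0.66 and -0.41 in C4-2B-EnzR, adjusted p from 0.000797 to 0.0158).

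The genes whose levels followed BAX most closely over the 12 libraries, after centring each line on its mean, were EMC10 (Pearson r = 0.996), GRINA (0.995), TRAF4 (0.995), EMC3 (0.993) and CD320 (0.993), among 7925 genes with a mean of at least 5 rescaled RPKM. The values share the libraries and the KD contrast, and the correlations carry no test. EMC3, a subunit of the ER membrane protein complex, was at -1.16 in LNCaP-EnzR cells and -1.02 in C4-2B-EnzR cells, and EMC10 of the same complex by -1.15 and -0.81, and GRINA, a transmembrane protein of the TMBIM family, by -1.26 and -0.95.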

How the data were processed

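Single-end RNA-Seq reads were mapped by the authors to GRCh38 (hg38 in the submitters' notes) with STAR, and RPKM per gene were computed with an in-house script and deposited as 1 table of 12 libraries. The study's methods name this unit FPKM, and tested counts, which are not used here. Lines without a value (32) and with a repeated symbol (4) were left out. The genes and lists were chosen with earlier results of these data known.

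RPKM were divided by median-of-ratios factors within each line, from genes above 0 in all 6 libraries and at 0.5 RPKM or more in at least 3. Limma 3.58.1 in R 4.3.3 was run on log2(rescaled RPKM + 0.25) with a variance trend, over genes at 0.5 or more in at least 3 libraries, 2-sided, with Benjamini-Hochberg adjustment over all tested genes. A fold change is on that scale, which understates changes of low genes. The line difference was an interaction over 12 libraries with each line rescaled by itself, and control levels used factors over all 12. The members were named in full, and from each list the genes called at 2-fold or more and the largest called change with a mean of at least 1 rescaled RPKM, with other called genes of the lists chosen after their values were seen. Likeness to BAX, the member with the largest mean change, was Pearson's r over 12 libraries.

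Whole reads were recovered from the steps between RPKM values for 25030 of 25030 genes above 0, within 0.02 reads, and limma's voom was run on them as an alternative. Other alternatives were deposited values, quantile normalization, pseudocounts of 0.05 and 1, filters, no trend, 1 fit of all libraries, background subtraction, a replicate block, stricter limits and leaving out each library. Factors from genes with a mean of at least 10 RPKM were added after the data were seen. Replicates differed by more than counting error and none was counted as a copy. The fits were tested on simulated data, drawn with independent normal noise at the fitted spreads. That simulation held no scaling error and no library with background like LNCaP-EnzR shCXCR7 replicate 3, so it cannot speak of their effect. Genes and exons came from GENCODE 44, start regions from RefSeq (GRCh38.p14), and figures were drawn with Python 3.11.15, pandas 2.3.3 and matplotlib 3.10.9.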

Additional observations from a re-analysis of the deposited data

Results flagged for a closer look

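The response of BAK1 to CXCR7 KD differed between the lines by a test of the difference itself. The log2 fold change was 0.48 higher in C4-2B-EnzR than in LNCaP-EnzR (standard error 0.14, limma adjusted p = 0.0351), with all 3 C4-2B-EnzR KD libraries above their controls and overlapping groups in LNCaP-EnzR. The response of BBC3 differed the other way, by -0.68 (standard error 0.18, adjusted p = 0.0256), with all 3 C4-2B-EnzR KD libraries below their controls and overlapping groups in LNCaP-EnzR. Over 23 alternative fits the adjusted p ranged from 0.0178 to 0.706 for BAK1 and from 0.00848 to 0.778 for BBC3, and 9 and 17 of them kept the call. Without LNCaP-EnzR shCXCR7 replicate 3, the library with most reads outside genes, the difference was 0.43 for BAK1 (adjusted p = 0.0729) and -0.77 for BBC3 (adjusted p = 0.0215). The BBC3 call was lost without LNCaP-EnzR LKO replicate 1, LKO replicate 3 or shCXCR7 replicate 2, and without C4-2B-EnzR LKO replicate 2 or shCXCR7 replicate 2 (adjusted p from 0.0514 to 0.0683). The BAK1 call was kept only without LNCaP-EnzR LKO replicate 1, LNCaP-EnzR shCXCR7 replicate 2 or C4-2B-EnzR LKO replicate 2 (adjusted p from 0.0178 to 0.0478), and was lost in the fits that left out any other library (adjusted p from 0.0505 to 0.0886). Groups of 3 libraries were too small for a test for outlying samples. The fall of ACKR3 itself differed between the lines by -0.73 (C4-2B-EnzR minus LNCaP-EnzR, standard error 0.14, limma adjusted p = 0.00574). Line and depth of KD therefore cannot be told apart in these differences of response.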

How the results depend on the processing

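In LNCaP-EnzR the count of called members was 4 in every fit that left out 1 library and 0 with RPKM as deposited, where BAX was at -1.60 (adjusted p = 0.0798) and BAK1, at -0.15, and BBC3, at -0.18, were reversed. ACKR3 was at -1.58 there (adjusted p = 0.112). BAD in LNCaP-EnzR turned to 0.0286 under quantile normalization and 0.0208 with factors from genes of at least 10 RPKM, which raised the share of higher calls among all called genes from 47.6% to 57.5%, while deposited values gave 38.9%. In C4-2B-EnzR the count was 5 to 7 without 1 library. Limits of 2-fold and an adjusted p under 0.001 left 1 member in each line, 1 between control lines and 0 with a line difference, and, of the other BCL2-family, apoptosome, death receptor and regulator lists, 2, 0, 1 and 0 genes in LNCaP-EnzR, then 3, 1, 0 and 1 in C4-2B-EnzR.

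Deposited values gave 2, 0, 0 and 0 called genes of these lists in LNCaP-EnzR by limma, with 2, 2, 1 and 0 at an unadjusted p under 0.05. Leaving out a library gave 5 to 7 and 2 to 6 called genes of the apoptosome list in the 2 lines, 4 to 6 of the death receptor and 2 to 6 of the regulator list in LNCaP-EnzR. The apoptosome list in LNCaP-EnzR had 5 without the variance trend, and that of C4-2B-EnzR had 8 under quantile normalization and 3 with the replicate block. The regulator list in LNCaP-EnzR had 3 with no filter.

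The count of members with a line difference was 0 with deposited values (0 at an unadjusted p under 0.05), 1 with no filter, with the replicate block, with voom and with factors from genes of at least 10 RPKM, and 0 to 2 without 1 library. It was 0 without LNCaP-EnzR LKO replicate 3 and without C4-2B-EnzR shCXCR7 replicate 2, with 2 at an unadjusted p under 0.05 in both. Differences that were not called were reversed for PMAIP1 (-0.27 to 0.0705) and BID (-0.25 to 0.104) with deposited values, for MCL1 with quantile normalization (-0.0665) and with factors from genes of at least 10 RPKM (-0.0303), and for BCL2L11 with those factors (-0.0809) and with background subtraction (-0.003). Without 1 library MCL1 ran from -0.0265 to 0.112 and BCL2L11 from -0.0903 to 0.084, both below 0 without LNCaP-EnzR shCXCR7 replicate 3 and BCL2L11 also without C4-2B-EnzR LKO replicate 1.

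Between control lines 3 members were called with deposited values, and 3 to 5 without 1 library. MCL1 was reversed with deposited values (0.0359), quantile normalization (0.0255) and factors from genes of at least 10 RPKM (0.0014), and BCL2L11 with quantile normalization (-0.0877). Without 1 library BCL2L11 ran from -0.065 to 0.110 and BAD from -0.13 to 0.111. The summed survival level of LNCaP-EnzR LKO was 67.6 with deposited values and 58.5 with factors from genes of at least 10 RPKM, and that of shCXCR7 58.4 with quantile normalization. The cause of these shifts was not tested.

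Libraries with the same replicate number showed weak correlations of their deviations (-0.02, 0.03 and -0.10 for LNCaP-EnzR, then 0.06, 0.06 and -0.11 for C4-2B-EnzR). With 3 libraries per group these cannot show whether the numbers pair the samples. The replicate block called 4 and 6 members in the 2 lines, as the fit without it did, but not the BAK1 line difference (limma adjusted p = 0.0788). Depth limits BCL2, at 9 to 44 reads in 11 libraries, more than any other member.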

Other observations

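Summed over the 5 BH3-only members, the level was 42.7, 42.9 and 43.0 rescaled RPKM in LNCaP-EnzR LKO and 44.9, 48.0 and 41.8 in shCXCR7, and 50.9, 57.0 and 62.7 and 60.8, 58.3 and 56.2 in C4-2B-EnzR. BAD made up the largest part of it, and the groups overlapped in both lines.

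Among the other BCL2-family genes, BCL2L12, BCL2L2, BMF, BNIP3L and BIK differed in their KD response between the lines. Of all 12482 genes tested for this, 13.9% differed. BCL2L12 rose by 0.76 in LNCaP-EnzR (limma adjusted p = 0.00011) and was at -0.03 in C4-2B-EnzR, a difference of -0.78 (adjusted p = 0.00122). BCL2L2, which encodes the survival protein BCL-W, fell in LNCaP-EnzR (-0.34, adjusted p = 0.00269) and was at 0.04 in C4-2B-EnzR, a difference of 0.38 (adjusted p = 0.0108). BMF rose more in LNCaP-EnzR (difference -0.52, adjusted p = 0.0111) and BNIP3L fell more there (difference 0.64, adjusted p = 0.0135). BIK rose by 0.53 in C4-2B-EnzR and was at 0.13 in LNCaP-EnzR, a difference of 0.40 (adjusted p = 0.0432). BCL2L13, BOK and BNIP3 had no called difference.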
